A study of Mus musculus with 10 samples.

Results

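Polycomb complex subunits were followed in mouse embryonic stem cells (ESCs) depleted of the cohesin release factor Wapal or of the cohesin ring subunit Smc3. The subunits were taken from a list of 39 gene names, not from their values. Earlier results of these data were known when the list was chosen. A gene was read on the probe set that carried its symbol alone in the array annotation and, where several did, on the one with the highest mean log2 intensity over the 10 arrays. By this rule 38 of the 39 genes were measured, out of 18193 genes on the array. They comprised 12 subunits of Polycomb repressive complex 2 (PRC2), 24 of Polycomb repressive complex 1 (PRC1) and 2 of the Polycomb deubiquitinase (PR-DUB). Rybp was not analysed here, because both of its probe sets carried 2 symbols. The 38 genes had 98 probe sets in all, and 7 of the genes had 1 probe set. The mean log2 intensity was under 6, a level taken as dim, for 6 genes, Pcgf1, Pcgf2, Cbx8, Scmh1, Bcorl1 and Phf19.

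CJ9 ESCs, a 129svj-derived line, were infected with lentivirus for 48 h with 10 µg/mL polybrene, moved to ESC medium with leukaemia inhibitory factor (LIF) and 4 µg/mL puromycin, and cultured for 48 h after infection. There were 5 groups of 2 arrays: Wapal shRNA1, Wapal shRNA2, Smc3 shRNA1, Smc3 shRNA2 and Empty Vector, the last infected with the vector alone. Thus every group, Empty Vector included, had been infected and exposed to puromycin, and each target was depleted with 2 different short hairpin RNAs. Total RNA was hybridised to Affymetrix Mouse Genome arrays, and levels are given as robust multi-array average (RMA) intensities.

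PRC2 methylates lysine residues of histone H3 through Ezh2 or Ezh1, held together by Suz12 and Eed, and accessory subunits help it reach CpG-rich promoters. PRC1 ubiquitinates histone H2A through Rnf2 or Ring1 paired with 1 of 6 Pcgf proteins. Its canonical forms carry a chromodomain protein (Cbx) that reads the PRC2 mark and a polyhomeotic protein (Phc), while its variant forms carry Rybp or Yaf2 in place of Cbx. In ESCs these complexes are known for keeping developmental regulators silent.

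The targeted transcripts were lower on the arrays labelled for them. Wapl fell by 81.8% in Wapal-depleted cells and Smc3 fell by 87.5% in Smc3-depleted cells, both against Empty Vector. The array medians were alike, at 38.6 to 39.7. The 10 arrays also fell on 2 sides that cut across the targets. The means of 4 glycolysis and hypoxia genes were 6.82 to 7.37 on Empty Vector replicate 1, both Wapal shRNA1 and both Smc3 shRNA2 arrays, and 7.86 to 8.87 on the other 5 arrays. Poly-A spike controls were 10.29 to 10.64 on the first of these sides and 9.94 to 10.28 on the second. Values within each side are given below for some of the genes. All 12 ESC markers were above log2 6 in every group. Of them, Nanog (-0.71 ± 0.09, adjusted p = 0.00297), Zfp42 (-0.44 ± 0.10, 0.0282) and Esrrb (-0.77 ± 0.13, 0.00913) fell with Smc3 depletion, and Esrrb (-0.66 ± 0.11, 0.0175) fell with Wapal depletion, on the log2 scale against Empty Vector. Of 14 fibroblast markers, 12 were under log2 6 with Smc3 shRNA1 and 13 in each other group, and their intensities summed to 426 to 570. Pdgfrb was the marker above that level with Smc3 shRNA1 alone, at 113 and 104 there, against 40.4 and 56.4 with Empty Vector. Thy1, which fell in both depletions, made up 178 and 208 of the Empty Vector sums. Of the 14 fibroblast markers, 4 rose and 2 fell with Smc3 depletion, or 42.9%, where 10% of all genes were called. With Wapal depletion 1 rose and 3 fell, or 28.6%, where 7.56% of all genes were called. The mean was under log2 6 for 13 of the 14. The sum of 19 differentiation markers was 1702 to 1741 with Wapal shRNA1, 2302 to 2397 with Wapal shRNA2, 3230 to 3377 with Smc3 shRNA1, 2493 to 2509 with Smc3 shRNA2 and 1672 to 1836 with Empty Vector. Otx2 made up much of that sum, at 2106 and 2119 with Smc3 shRNA1 against 668 and 773 with Empty Vector, and the median difference of the 19 markers with Smc3 depletion was 0.01, as for all genes, with 1 risen and 1 fallen. With Wapal depletion their median was 0.20, where that of all genes was 0.01, also with 1 risen and 1 fallen. Of the 19, 13 had a mean under log2 6. The part of the sides or of these markers in the results below was not tested.

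Against Empty Vector, most Polycomb subunits did not pass the test after either depletion, and the subunits that did were few and of mixed direction. In Wapal-depleted cells 2 members rose and 3 fell, which is 13.2% of the 38, where 7.56% of all genes were called (2.63% rose and 4.93% fell). In Smc3-depleted cells 5 rose and 2 fell, which is 18.4%, where 10% of all genes were called (6.08% rose and 3.94% fell). The depletions differed from each other at 14 members, with 5 higher and 9 lower in Wapal-depleted than in Smc3-depleted cells. This is 36.8%, where 22.5% of all genes were called (7.66% higher and 14.8% lower). A call here is an adjusted p under 0.05 in limma, adjusted by Benjamini-Hochberg over 45037 probe sets. Differences are on the log2 scale and stand with their SE, from 4 arrays against 2 for a depletion against Empty Vector, 4 against 4 between the depletions and 2 against 2 for single shRNAs. Among genes with a mean of at least log2 6, 11%, 14.2% and 32.3% were called in these 3 comparisons, and of the 32 members that bright, 5, 7 and 12 were called. These counts are not far from the background and are not read as a result about the members. Without 1 array at a time, the counts were 0 to 1 risen and 1 to 2 fallen with Wapal depletion, 1 to 5 risen and 2 to 3 fallen with Smc3 depletion, and 2 to 5 higher and 5 to 9 lower between the depletions. Since both depletions were set against the same 2 Empty Vector arrays, their values are given side by side, and the direct comparison is the test of whether they differ. In these bulk samples, fewer cells of a type and less RNA per cell cannot be told apart.

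PRC2 and PRC1 each had few members called against Empty Vector. Of 12 PRC2 subunits, 0 rose and 1 fell in Wapal-depleted cells, 1 rose and 1 fell in Smc3-depleted cells, and 1 was higher and 2 were lower with Wapal than with Smc3 depletion. Of 24 PRC1 subunits, 2 rose and 1 fell with Wapal depletion, 4 rose and 1 fell with Smc3 depletion, and 3 were higher and 6 lower with Wapal than with Smc3 depletion. A difference between the complexes was not tested. The median log2 difference of all 38 members was -0.09 with Wapal depletion, where that of all genes was 0.01, and -0.03 with Smc3 depletion, where that of all genes was also 0.01. With Wapal depletion all 4 arrays lay above both Empty Vector arrays for 7 of the 38 members and below them for 12, where 16% and 17.1% of all genes did so. With Smc3 depletion the counts were 9 of the 38 above and 9 below, where 13.9% and 13.1% of all genes did so. All 4 Wapal arrays lay above all 4 Smc3 arrays for 4 of the 38 members and below them for 8, where 7.56% and 10.7% of all genes did so, 18.3% in all.

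**Figure D1:**
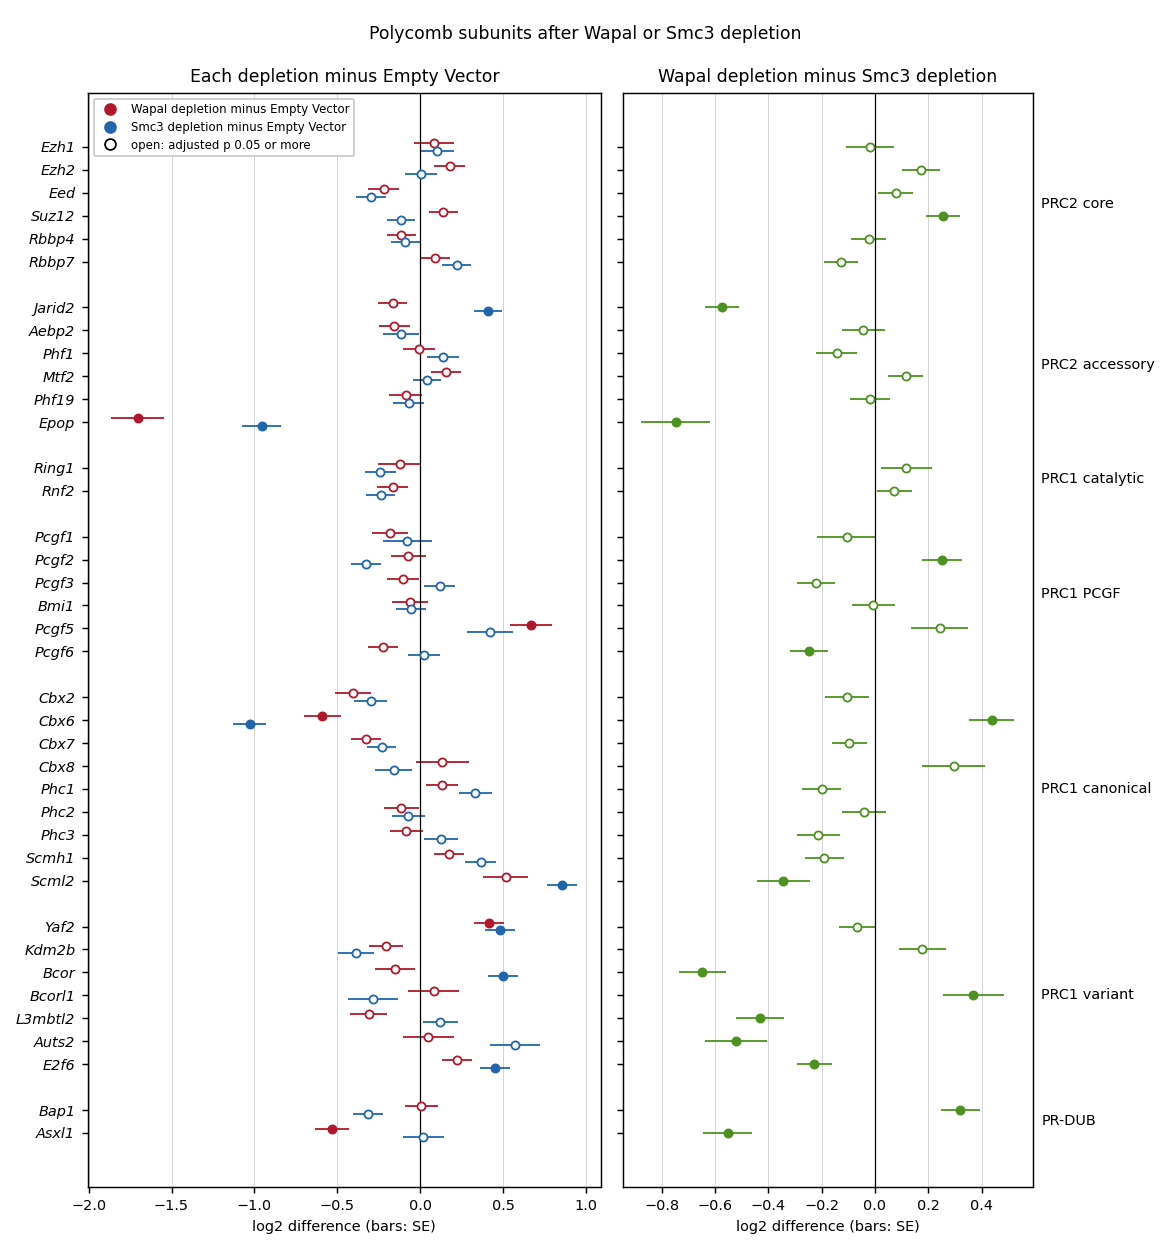
Log2 differences of the 38 Polycomb subunits (x axis, with SE bars) by gene and role, for Wapal and Smc3 depletion against Empty Vector (left) and for Wapal against Smc3 depletion (right), with filled points for an adjusted p under 0.05. Most points lie close to 0, while Epop (-1.70 with Wapal and -0.96 with Smc3 depletion) and Cbx6 (-0.59 and -1.03) lie far to the left in both depletions.

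Each gene was given 1 promoter, at the first listed start where there were several, as for Bcor with 2. Promoter windows of 300 bases, from 250 before to 50 after that start of the RefSeq transcript (GRCm38.p6), were matched by symbol for 33 of the 38 members, not for Epop, Pcgf1, Cbx2, Yaf2 and Auts2. Those of Cbx6, which fell in both depletions, of Scml2 and Bcor, which rose in Smc3-depleted cells, and of Bmi1, which differed most between the Smc3 shRNAs, are printed in the direction of transcription. Cbx6 is read from chr15:79834284-79834583 on the minus strand, Scml2 from chrX:161162500-161162799 on the plus strand, Bcor from chrX:12160297-12160596 on the minus strand and Bmi1 from chr2:18676768-18677067 on the plus strand. Capitals mark matches, on either strand, to CACGTG (an E-box, the letters bound by Myc family proteins), TTTNNCGC (E2F), CCCTC (a core of the CTCF motif) and ATGGCGGC (YY1). None of these strings contains another.
Cbx6: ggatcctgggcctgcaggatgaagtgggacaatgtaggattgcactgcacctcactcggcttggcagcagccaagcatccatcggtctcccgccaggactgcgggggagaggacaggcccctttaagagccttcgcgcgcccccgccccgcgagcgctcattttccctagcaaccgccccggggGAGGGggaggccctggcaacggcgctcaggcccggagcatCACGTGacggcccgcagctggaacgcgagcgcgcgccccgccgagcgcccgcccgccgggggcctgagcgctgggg
Scml2: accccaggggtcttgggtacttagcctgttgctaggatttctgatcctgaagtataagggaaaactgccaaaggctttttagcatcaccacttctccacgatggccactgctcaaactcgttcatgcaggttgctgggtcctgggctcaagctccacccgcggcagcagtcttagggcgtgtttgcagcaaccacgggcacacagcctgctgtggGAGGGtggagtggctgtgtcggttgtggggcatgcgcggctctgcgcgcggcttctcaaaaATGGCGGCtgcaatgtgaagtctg
Bcor: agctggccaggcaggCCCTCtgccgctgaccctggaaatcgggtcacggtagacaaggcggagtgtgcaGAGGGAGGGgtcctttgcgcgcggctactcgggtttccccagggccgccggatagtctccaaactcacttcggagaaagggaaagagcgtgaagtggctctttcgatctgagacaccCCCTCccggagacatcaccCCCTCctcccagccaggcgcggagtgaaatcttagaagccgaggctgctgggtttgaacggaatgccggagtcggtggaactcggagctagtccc
Bmi1: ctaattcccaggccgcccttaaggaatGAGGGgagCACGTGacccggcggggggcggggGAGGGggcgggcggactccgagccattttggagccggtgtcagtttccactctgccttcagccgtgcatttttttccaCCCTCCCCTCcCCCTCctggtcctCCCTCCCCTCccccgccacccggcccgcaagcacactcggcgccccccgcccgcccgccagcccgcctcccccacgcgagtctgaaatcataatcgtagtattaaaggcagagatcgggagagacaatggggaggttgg
The windows of Cbx6 and Bmi1 each hold 1 E-box, that of Scml2 holds 1 YY1 match, and CCCTC occurs 1 time in Cbx6, 1 time in Scml2, 5 times in Bcor and 7 times in Bmi1. Over the members, 9 of 33 windows hold the E-box, 4 the E2F string, 31 the CTCF core and 3 the YY1 string, where 7.24%, 5.27%, 65% and 2.38% of 27025 promoter windows of this length hold them. The members' windows had a median of 24 CpG dinucleotides and 66% G and C, where all windows had 7 and 52.7%. A match is a description of the letters and not a site.

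On their brightest probe sets, the 6 core genes of PRC2 passed the test in neither depletion against Empty Vector. Ezh2, the main methyltransferase in dividing cells, gave RMA intensities, the unit of all array values below, of 2322 and 2274 with Wapal shRNA1, 2596 and 2609.9 with Wapal shRNA2, 2428 and 2204 with Smc3 shRNA1, 2057 and 2017 with Smc3 shRNA2, and 2036 and 2296 with Empty Vector. The depleted arrays overlapped the Empty Vector arrays, and the 95% interval of the log2 difference was -0.04 to 0.39 with Wapal depletion and -0.22 to 0.23 with Smc3 depletion. The sign of the Smc3 value turned in 3 of the 6 fits without an array, to -0.081, -0.029 and -0.0013. Eed, which binds the methylated histone tail and stimulates the enzyme, gave 5395 and 5337 with Wapal shRNA1, 5001 and 5086 with Wapal shRNA2, 4562 and 4529 with Smc3 shRNA1, 5413 and 5286 with Smc3 shRNA2, and 6379 and 5761 with Empty Vector. All 8 depleted arrays lay below both Empty Vector arrays, with a log2 difference of -0.22 ± 0.09, adjusted p = 0.199 (95% interval -0.43 to -0.01) with Wapal depletion and -0.30 ± 0.09, adjusted p = 0.0929 (95% interval -0.51 to -0.09) with Smc3 depletion. The Smc3 value of Eed passed once dim probe sets were left out of the fit (adjusted p = 0.0334), with log2(value + 16) (0.0305) and with all 10 arrays in 1 model (0.0439). With Smc3 shRNA1 alone, Eed fell against Empty Vector (-0.42 ± 0.11, adjusted p = 0.0464).

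Suz12, the scaffold of PRC2, was the 1 core subunit at which the depletions differed. It gave 3991 and 3820.4 with Wapal shRNA1, 3768 and 3815 with Wapal shRNA2, 3365 and 3431 with Smc3 shRNA1, 3126 and 2994 with Smc3 shRNA2, and 3493 and 3496 with Empty Vector. Every Wapal array lay above and every Smc3 array below the Empty Vector arrays, and neither comparison passed on this probe set (0.14 ± 0.09, adjusted p = 0.385, and -0.12 ± 0.09, adjusted p = 0.508, with 95% intervals of -0.06 to 0.34 and -0.31 to 0.08). The difference between the depletions was 0.25 ± 0.06, adjusted p = 0.0209 (n = 4 each, 1.19-fold). All 6 probe sets of Suz12 were higher in Wapal-depleted than in Smc3-depleted cells, by 0.25 to 0.56, and all 6 passed. Against Empty Vector, 1 of the dimmer ones fell with Smc3 depletion (-0.45, adjusted p = 0.0183). The call on the brightest probe set was lost without each of 6 of the 8 depleted arrays in turn (adjusted p up to 0.0692). It stood without Wapal shRNA1 replicate 2 (0.0432) and without Smc3 shRNA2 replicate 1 (0.0478). Ezh1, the methyltransferase of PRC2 that Ezh2 outweighs in stem cells, gave 0.08 with Wapal and 0.10 with Smc3 depletion. The histone-binding subunits Rbbp4 and Rbbp7, which also serve other chromatin complexes, gave -0.11 and 0.09 with Wapal depletion and -0.09 and 0.22 with Smc3 depletion. None of these 3 passed in any of the 3 main comparisons.

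Epop, which joins PRC2 to Elongin BC in ESCs, had the largest change of the members after Wapal depletion. It gave 44.8 and 67.1 with Wapal shRNA1, 68.3 and 80.3 with Wapal shRNA2, 100 and 99.5 with Smc3 shRNA1, 131 and 101 with Smc3 shRNA2, and 214 and 201 with Empty Vector. The 2 Empty Vector arrays were the highest of the 10, the Smc3 arrays came next and all 4 Wapal arrays were the lowest. Epop fell by 69.3% in Wapal-depleted cells (-1.70 ± 0.16, adjusted p = 0.00377) and fell by 48.5% in Smc3-depleted cells (-0.96 ± 0.12, adjusted p = 0.00298), both against Empty Vector. It was also lower with Wapal than with Smc3 depletion (-0.75 ± 0.13, adjusted p = 0.00299). Each of the 4 shRNAs gave a fall of its own, of -1.92 and -1.49 for Wapal shRNA1 and shRNA2 and of -1.06 and -0.86 for Smc3 shRNA1 and shRNA2. Within the sides, the values were -1.97 and -1.44 with Wapal shRNA1 and shRNA2, and -1.01 and -0.90 with Smc3 shRNA1 and shRNA2, where the Empty Vector arrays differed by 0.09. All 3 calls stood without each array in turn (adjusted p up to 0.0290, 0.0164 and 0.0163). Epop has 1 probe set, so no other probe set was compared.

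Jarid2, a Jumonji family protein that helps to bring PRC2 to its targets, was the accessory subunit that separated the depletions most clearly. It gave 4449 and 4554 with Wapal shRNA1, 4141 and 4041 with Wapal shRNA2, 6309.6 and 6527 with Smc3 shRNA1, 6452 and 6268 with Smc3 shRNA2, and 4813 and 4809.9 with Empty Vector. All 4 Smc3 arrays lay above both Empty Vector arrays and all 4 Wapal arrays below them. Jarid2 rose in Smc3-depleted cells (0.41 ± 0.09, adjusted p = 0.0257, 1.33-fold) and did not pass in Wapal-depleted cells (-0.17 ± 0.09, adjusted p = 0.300). The difference between the depletions was -0.57 ± 0.06, adjusted p = 0.000259, and its other 2 probe sets gave -0.61, adjusted p = 0.000407 and -0.59, adjusted p = 0.000479. That difference stood without each of the 10 arrays (adjusted p up to 0.00211), while the rise against Empty Vector was lost without each of the 6 arrays (adjusted p 0.0605 to 0.0975) at values of 0.40 to 0.42. The brightest probe sets of the other accessory subunits passed nowhere in the 3 main comparisons. They were the zinc finger protein Aebp2 (-0.16 with Wapal and -0.11 with Smc3 depletion) and the Polycomb-like proteins Phf1 (-0.01 and 0.14), Mtf2 (0.16 and 0.04) and Phf19 (-0.09 and -0.07). Dimmer probe sets of Aebp2 and Mtf2 did pass. Of the 5 of Aebp2, 1 fell with Wapal depletion (-0.72, adjusted p = 0.0186) and was lower with Wapal than with Smc3 depletion (-0.60, adjusted p = 0.00185). Of the 6 of Mtf2, 3 were higher with Wapal than with Smc3 depletion (0.29, adjusted p = 0.0224, 0.25, adjusted p = 0.0218, and 0.49, adjusted p = 0.00117).

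**Figure D2:**
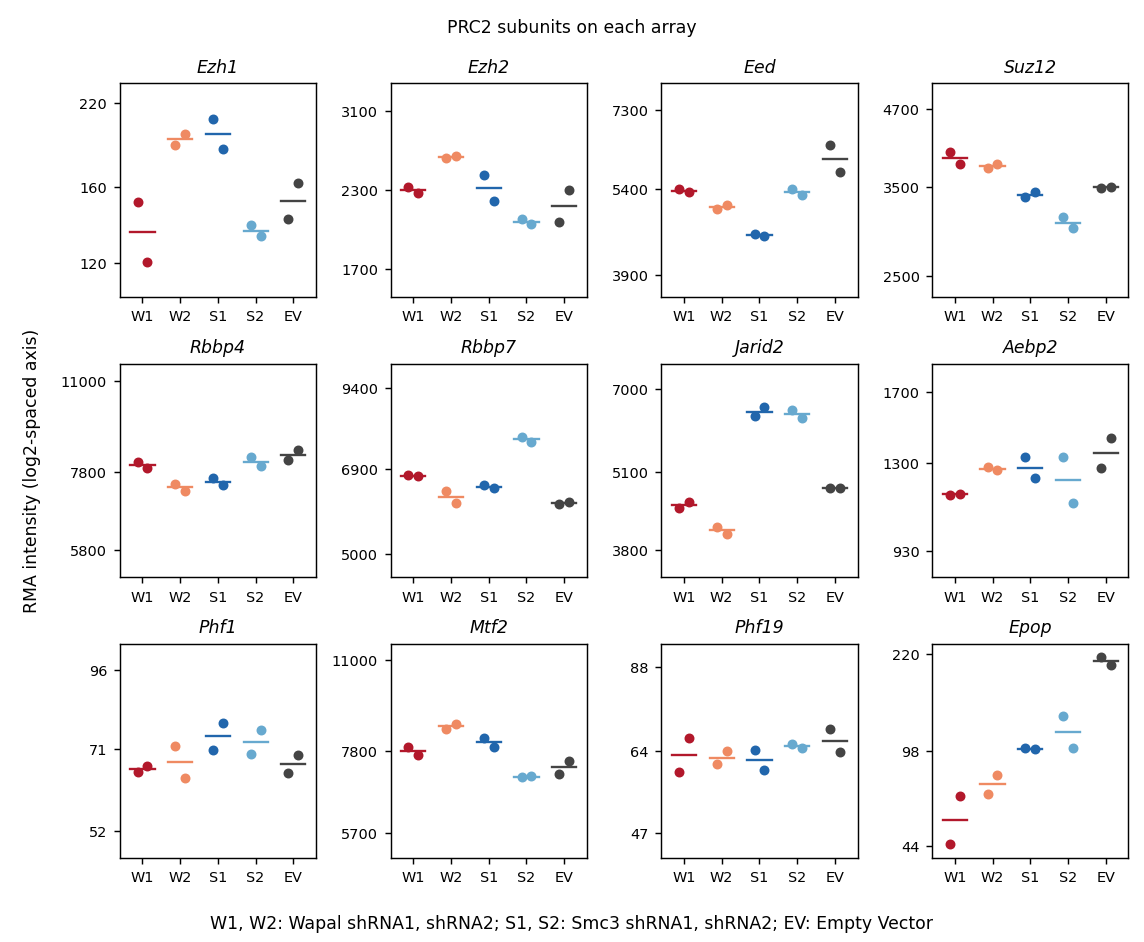
RMA intensity (y axis, log2-spaced, each gene on its own range) of the 12 PRC2 subunits on each of the 10 arrays, by group (x axis), with a line at the geometric mean of each group's 2 arrays. Epop is lowest on the 4 Wapal arrays, at 44.8 to 80.3, and highest on the 2 Empty Vector arrays, at 214 and 201, and Jarid2 is highest on the 4 Smc3 arrays.

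The catalytic subunits of PRC1 did not pass in any of the 3 main comparisons. Rnf2, the main ubiquitin ligase of PRC1 in ESCs, gave 2384 and 2217 with Wapal shRNA1, 2285 and 2243 with Wapal shRNA2, 2158 and 2154 with Smc3 shRNA1, 2214 and 2155 with Smc3 shRNA2, and 2609 and 2513 with Empty Vector. All 8 depleted arrays lay below both Empty Vector arrays, with log2 differences of -0.17 ± 0.09, adjusted p = 0.311 (95% interval -0.37 to 0.04) with Wapal depletion and -0.24 ± 0.09, adjusted p = 0.151 (95% interval -0.44 to -0.04) with Smc3 depletion. The Smc3 value of Rnf2 passed with dim probe sets left out (adjusted p = 0.0488), with log2(value + 16) (0.0328) and with the mean of its 5 probe sets (-0.33, adjusted p = 0.0262). Ring1, its paralogue, gave 76.2 and 89.6 with Wapal shRNA1, 66.8 and 86.0 with Wapal shRNA2, 65.7 and 72.5 with Smc3 shRNA1, 77.8 and 76.4 with Smc3 shRNA2, and 89.3 and 83.3 with Empty Vector. The Wapal arrays overlapped the Empty Vector arrays (-0.12 ± 0.13, adjusted p = 0.606, 95% interval -0.42 to 0.17), and the Smc3 arrays lay below them (-0.24 ± 0.09, adjusted p = 0.177, 95% interval -0.45 to -0.03).

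Cbx6, a chromodomain subunit of canonical PRC1, fell in both depletions and further with Smc3 depletion. It gave 151 and 183 with Wapal shRNA1, 187 and 176 with Wapal shRNA2, 143 and 134 with Smc3 shRNA1, 126 and 112 with Smc3 shRNA2, and 248 and 275 with Empty Vector. All 8 depleted arrays were below both Empty Vector arrays, and every Wapal array was above every Smc3 array. The fall was -0.59 ± 0.11, adjusted p = 0.0247 in Wapal-depleted cells and -1.03 ± 0.10, adjusted p = 0.00110 in Smc3-depleted cells. With Smc3 depletion it fell by 51.0%, and the difference between the depletions was 0.44 ± 0.09, adjusted p = 0.00573. Within the sides, Wapal shRNA1 and shRNA2 gave -0.58 and -0.60, and Smc3 shRNA1 and shRNA2 gave -0.99 and -1.07. Its second probe set fell with Smc3 depletion (-0.57, adjusted p = 0.0175), was higher with Wapal than with Smc3 depletion (0.40, adjusted p = 0.00810) and did not pass with Wapal depletion (-0.17, adjusted p = 0.357). The Smc3 call and the call between the depletions stood without each array (adjusted p up to 0.00941 and 0.0263). The Wapal call stood without Wapal shRNA1 replicate 2 (adjusted p = 0.0466), was lost without each of the other 5 arrays (up to 0.0845) and with quantile normalization (0.0571), and its value over both probe sets was -0.38.

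Scml2, a protein with MBT and SAM domains that binds PRC1, was the subunit that rose most with Smc3 depletion. It gave 182 and 130.2 with Wapal shRNA1, 154 and 150.2 with Wapal shRNA2, 187 and 206 with Smc3 shRNA1, 193 and 191 with Smc3 shRNA2, and 107 and 107 with Empty Vector. All 8 depleted arrays lay above both Empty Vector arrays, and the Wapal arrays lay below the Smc3 arrays, Wapal shRNA1 replicate 1 only just. Scml2 rose 1.81-fold in Smc3-depleted cells (0.86 ± 0.09, adjusted p = 0.00156), a call that stood without each array (adjusted p up to 0.0123). With Wapal depletion the brightest probe set gave 0.52 ± 0.13, adjusted p = 0.0622 and did not pass, whereas its second probe set rose (0.67, adjusted p = 0.0120), as it did with Smc3 depletion (0.55, adjusted p = 0.0130). The brightest probe set was lower with Wapal than with Smc3 depletion (-0.34 ± 0.10, adjusted p = 0.0369). That difference stood without either Empty Vector array and without Wapal shRNA1 replicate 1, where it was -0.46, and was lost without each of the other 7 arrays (adjusted p up to 0.112), being -0.22 without Wapal shRNA1 replicate 2. It was also lost with quantile normalization (0.118) and over both probe sets (-0.11, adjusted p = 0.319).

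The other 7 subunits of canonical PRC1 passed in none of the 3 main comparisons. The chromodomain proteins Cbx2 and Cbx7 were below Empty Vector with both depletions, at -0.40 ± 0.11, adjusted p = 0.0679 and -0.33 ± 0.09, adjusted p = 0.0763 with Wapal depletion and -0.30 ± 0.10, adjusted p = 0.127 and -0.23 ± 0.09, adjusted p = 0.169 with Smc3 depletion. The dim Cbx8 gave 0.13 and -0.16, with values within the sides of -0.28 and 0.55 for Wapal shRNA1 and shRNA2. Among the polyhomeotic proteins, whose SAM domains polymerise, Phc1 gave 0.13 and 0.33, Phc2 -0.11 and -0.07, and Phc3 -0.08 and 0.13 with Wapal and with Smc3 depletion. Scmh1, a relative of Scml2 and dim, gave 0.17 and 0.36. With single shRNAs against Empty Vector, Cbx7 fell with Wapal shRNA1 (-0.46 ± 0.11, adjusted p = 0.0483), and Phc1 (0.58 ± 0.11, adjusted p = 0.0183) and Scmh1 (0.51 ± 0.11, adjusted p = 0.0253) rose with Smc3 shRNA1.

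Of the 6 Pcgf genes, whose proteins pair with Rnf2 or Ring1 and set the type of PRC1, 1 rose with Wapal depletion. Pcgf5, found in variant complexes with Auts2, gave 798 and 716 with Wapal shRNA1, 678 and 758 with Wapal shRNA2, 782 and 679 with Smc3 shRNA1, 480.0 and 589 with Smc3 shRNA2, and 408 and 528 with Empty Vector. All Wapal arrays and both Smc3 shRNA1 arrays were above the Empty Vector arrays, while Smc3 shRNA2 overlapped them. Pcgf5 rose in Wapal-depleted cells (0.67 ± 0.13, adjusted p = 0.0259) and did not pass in Smc3-depleted cells (0.42 ± 0.14, adjusted p = 0.114), and the difference between the depletions did not pass either (0.24 ± 0.11, adjusted p = 0.149). The Empty Vector arrays themselves differed by -0.37, and within the sides Wapal shRNA1 gave 0.89 and Wapal shRNA2 0.44. The Wapal call stood without Empty Vector replicate 2 (adjusted p = 0.0172) and was lost without each of the other 5 arrays (up to 0.112). Over the 3 probe sets of Pcgf5 the value was 0.38. The dimmest of them gave -0.02 with Wapal and -0.46 with Smc3 depletion.

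Pcgf6 and Pcgf2 differed between the depletions by small amounts. Pcgf6, of the variant complex with L3mbtl2 and E2f6, gave 1048 and 1124 with Wapal shRNA1, 1022 and 1013 with Wapal shRNA2, 1349 and 1222 with Smc3 shRNA1, 1270.2 and 1157 with Smc3 shRNA2, and 1267 and 1188 with Empty Vector. Each of the 4 Wapal arrays was below both Empty Vector and all Smc3 arrays, and the difference between the depletions was -0.25 ± 0.07, adjusted p = 0.0391. That call was lost without each of the 8 depleted arrays (adjusted p up to 0.134), with quantile normalization, with the replicate block, with the side of the array as a covariate and over its 3 probe sets (-0.16). Pcgf2 (Mel18), a partner in canonical PRC1, was dim, at 38.7 and 42.2 with Wapal shRNA1, 29.2 and 33.6 with Wapal shRNA2, 28.3 and 29.3 with Smc3 shRNA1, 31.1 and 30.8 with Smc3 shRNA2, and 35.7 and 39.2 with Empty Vector. Within the sides, Wapal shRNA1 gave 0.18 and Wapal shRNA2 -0.32 against Empty Vector. The Wapal and Smc3 arrays of Pcgf2 overlapped, with a difference of 0.25 ± 0.08, adjusted p = 0.0435 that was lost without each of 7 of the 8 depleted arrays (adjusted p up to 0.147, kept without Wapal shRNA2 replicate 1). It was also lost with quantile normalization, with the side as a covariate and over both probe sets (0.14). Pcgf1, Pcgf3 and Bmi1 passed in none of the 3 main comparisons, with values of -0.18, -0.10 and -0.06 with Wapal depletion and -0.08, 0.12 and -0.06 with Smc3 depletion.

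Yaf2, the paralogue of Rybp in variant PRC1, was the member that rose in both depletions. It gave 333 and 346 with Wapal shRNA1, 278 and 272 with Wapal shRNA2, 307 and 335 with Smc3 shRNA1, 309.8 and 329 with Smc3 shRNA2, and 228 and 229.5 with Empty Vector. The Empty Vector arrays were below all 8 depleted arrays. Yaf2 rose by 0.42 ± 0.09, adjusted p = 0.0362 with Wapal depletion and by 0.48 ± 0.09, adjusted p = 0.0164 with Smc3 depletion, and the difference between the depletions did not pass (-0.07 ± 0.07, adjusted p = 0.536, 95% interval -0.22 to 0.08). Its second probe set rose in both as well (0.53, adjusted p = 0.0419, and 0.57, adjusted p = 0.00996). The Wapal call was lost without each of the 6 arrays in turn (adjusted p 0.0772 to 0.119) and with replicate number as a block (0.0555). The Smc3 call was lost without Empty Vector replicate 1 (0.0695), without Smc3 shRNA1 replicate 2 (0.0621) and without Smc3 shRNA2 replicate 2 (0.0674).

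Bcor, the corepressor that joins Pcgf1 and Kdm2b in a variant PRC1, rose with Smc3 depletion. It gave 98.1 and 123 with Wapal shRNA1, 129 and 114 with Wapal shRNA2, 191 and 188 with Smc3 shRNA1, 175 and 169 with Smc3 shRNA2, and 134 and 121 with Empty Vector. All 4 Smc3 arrays were above the Empty Vector and Wapal arrays, and the Wapal arrays overlapped Empty Vector. Bcor rose with Smc3 depletion (0.50 ± 0.09, adjusted p = 0.0147), did not pass with Wapal depletion (-0.15 ± 0.12, adjusted p = 0.501) and differed between the depletions (-0.65 ± 0.09, adjusted p = 0.000795). Its other 2 probe sets gave differences between the depletions of -0.58, adjusted p = 0.00132, and -0.39, adjusted p = 0.0154. That difference stood without each array (adjusted p up to 0.00545), whereas the rise against Empty Vector stood without Empty Vector replicate 1 (adjusted p = 0.0312) and was lost without each of the other 5 arrays (up to 0.0576). Bcorl1, its paralogue, was dim at 35.9 and 41.0 with Wapal shRNA1, 31.3 and 35.0 with Wapal shRNA2, 30.7 and 26.9 with Smc3 shRNA1, 26.0 and 27.1 with Smc3 shRNA2, and 40.6 and 27.9 with Empty Vector. Its Wapal arrays were above its Smc3 arrays (0.37 ± 0.12, adjusted p = 0.04999), a call that was lost without each of the 8 depleted arrays (adjusted p up to 0.151) and with quantile normalization, log2(value + 16), the replicate block, the side as a covariate and both probe sets together (0.18). Kdm2b, which binds unmethylated CpG through its CXXC finger, gave -0.21 ± 0.10, adjusted p = 0.263 and -0.38 ± 0.11, adjusted p = 0.0724 with Wapal and Smc3 depletion and fell with Smc3 shRNA1 alone (-0.65 ± 0.13, adjusted p = 0.0165).

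L3mbtl2, Auts2 and E2f6 were all lower with Wapal than with Smc3 depletion. L3mbtl2, an MBT domain protein of the Pcgf6 complex, gave 189.9 and 229 with Wapal shRNA1, 208 and 231 with Wapal shRNA2, 291 and 245 with Smc3 shRNA1, 323 and 298 with Smc3 shRNA2, and 276 and 254 with Empty Vector. The Wapal arrays were below the Empty Vector and Smc3 arrays, and the difference between the depletions was -0.43 ± 0.09, adjusted p = 0.00869, which stood without each array (adjusted p up to 0.0400). Against Empty Vector it passed neither with Wapal (-0.31 ± 0.11, adjusted p = 0.145) nor with Smc3 depletion (0.12 ± 0.11, adjusted p = 0.580).

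Auts2, which in mammals turns a Pcgf5-containing complex to activation, gave 94.7 and 91.8 with Wapal shRNA1, 61.7 and 72.5 with Wapal shRNA2, 104 and 106 with Smc3 shRNA1, 132 and 114 with Smc3 shRNA2, and 62.9 and 92.5 with Empty Vector. All Smc3 arrays were above all Wapal arrays, and the Empty Vector arrays spanned much of the Wapal range, differing by -0.56 between themselves. Within the sides, Auts2 gave 0.57 and -0.47 with Wapal shRNA1 and shRNA2 and 0.18 and 0.96 with Smc3 shRNA1 and shRNA2. The difference between the depletions was -0.52 ± 0.12, adjusted p = 0.0114, lost without Smc3 shRNA2 replicate 1 (adjusted p = 0.0510) and kept without each other array. E2f6, the DNA-binding repressor of the Pcgf6 complex, gave 268 and 259.8 with Wapal shRNA1, 257 and 246 with Wapal shRNA2, 281 and 258 with Smc3 shRNA1, 337 and 338 with Smc3 shRNA2, and 221 and 221 with Empty Vector. The depleted arrays were all above Empty Vector, and E2f6 rose with Smc3 depletion (0.45 ± 0.09, adjusted p = 0.0201). It did not pass with Wapal depletion (0.22 ± 0.09, adjusted p = 0.179). The Smc3 call of E2f6 was lost without Empty Vector replicate 1, Smc3 shRNA1 replicate 1, Smc3 shRNA2 replicate 1 and Smc3 shRNA2 replicate 2 (adjusted p up to 0.0787). Its difference between the depletions, -0.23 ± 0.07, adjusted p = 0.0389, was lost without each of the 8 depleted arrays (up to 0.133), with quantile normalization (-0.12), with the block, with the side as a covariate and over both probe sets (-0.03). Within the sides E2f6 gave 0.29 with Smc3 shRNA1 and 0.61 with Smc3 shRNA2.

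Of the 7 variant PRC1 genes measured, 1 was higher and 4 were lower with Wapal than with Smc3 depletion, where 22.5% of all genes and 32.3% of bright genes were called. Of these 5 calls, those of Bcorl1 and E2f6 were lost without each of the 8 depleted arrays and that of Auts2 without 1 array. Their median difference was -0.23, where that of all genes was 0.01.

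PR-DUB removes the ubiquitin that PRC1 adds to histone H2A. Its scaffold Asxl1 gave 641 and 609 with Wapal shRNA1, 663 and 638 with Wapal shRNA2, 979.5 and 961 with Smc3 shRNA1, 1026 and 792 with Smc3 shRNA2, and 853 and 997 with Empty Vector. All 4 Wapal arrays were the lowest of the 10, and the Smc3 arrays overlapped Empty Vector. Asxl1 fell with Wapal depletion (-0.53 ± 0.10, adjusted p = 0.0256), did not pass with Smc3 depletion (0.02 ± 0.13, adjusted p = 0.954) and was lower with Wapal than with Smc3 depletion (-0.55 ± 0.09, adjusted p = 0.00254). The fall against Empty Vector stood without Empty Vector replicate 1 (adjusted p = 0.0485) and was lost without each of the other 5 arrays (up to 0.0860). Over its 3 probe sets it was -0.34. The difference between the depletions stood without each array (up to 0.0128) but not over the 3 probe sets (-0.19, adjusted p = 0.136). The deubiquitinase Bap1 gave 888 and 775 with Wapal shRNA1, 727 and 754 with Wapal shRNA2, 809.5 and 795 with Smc3 shRNA1, 497 and 485 with Smc3 shRNA2, and 743 and 818 with Empty Vector. Its 2 Smc3 shRNA2 arrays were the lowest of the 10, while Smc3 shRNA1 lay with the Wapal and Empty Vector arrays. Within the sides, Smc3 shRNA1 gave -0.03 and Smc3 shRNA2 -0.60. The difference between the depletions (0.32 ± 0.07, adjusted p = 0.0130) stood without each array (up to 0.0476) and was lost with the side as a covariate (0.181), and neither depletion passed against Empty Vector (0.01 ± 0.10, adjusted p = 0.975, and -0.31 ± 0.09, adjusted p = 0.0783).

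**Figure D3:**
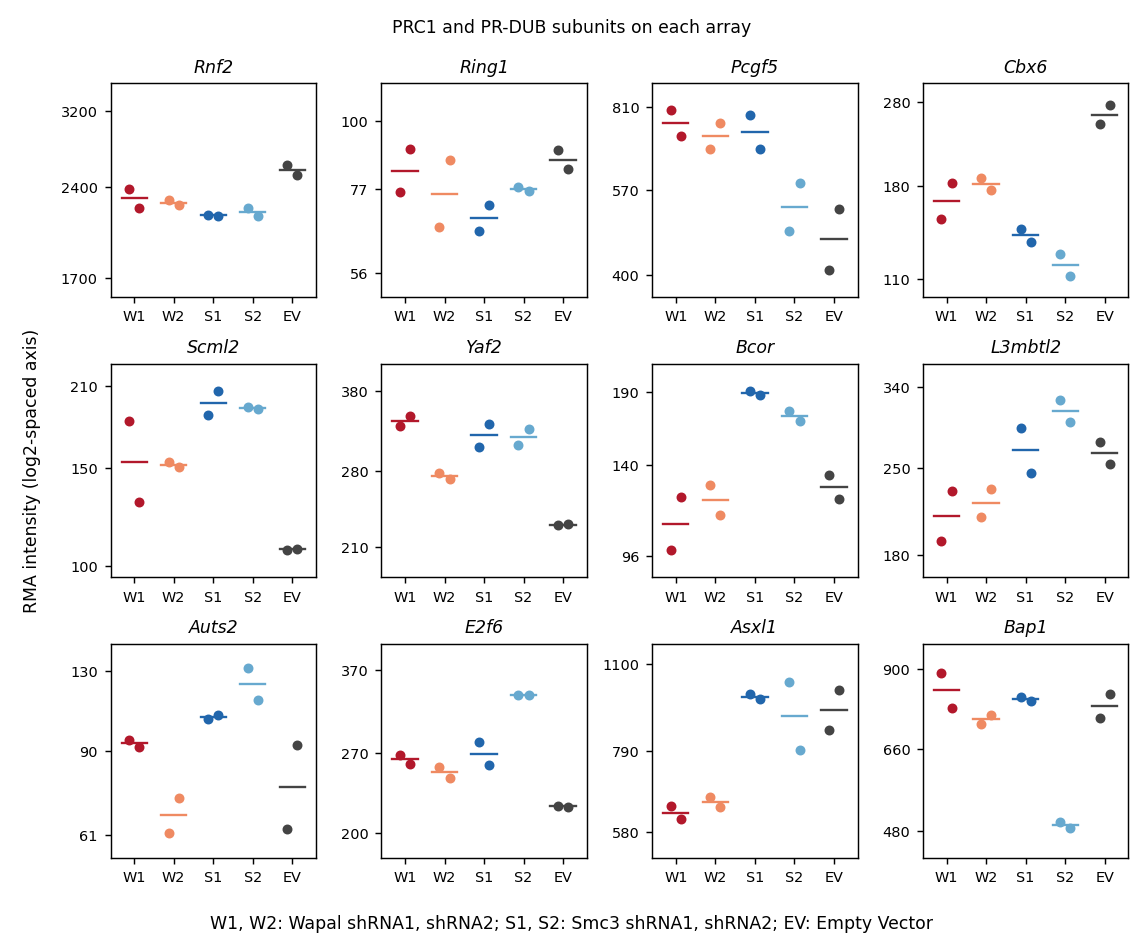
RMA intensity (y axis, log2-spaced, each gene on its own range) of 12 PRC1 and PR-DUB subunits on each array, by group (x axis), with a line at the geometric mean of each group's 2 arrays. Cbx6 is highest and Yaf2 lowest on the Empty Vector arrays, Bcor is highest on the 4 Smc3 arrays, and Asxl1 is lowest on the 4 Wapal arrays.

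Several subunits differed between the 2 Smc3 shRNAs, although both lowered Smc3 by similar amounts (-3.09 with shRNA1 and -2.92 with shRNA2). Of the 38 members, 4 were higher and 2 lower with Smc3 shRNA1 than with Smc3 shRNA2, or 15.8%, where 12.5% of all genes were called (7.87% higher and 4.63% lower). Bmi1 (Pcgf4), a partner in canonical PRC1, had the largest difference, at 232 and 232 with Wapal shRNA1, 189.7 and 154 with Wapal shRNA2, 129 and 141 with Smc3 shRNA1, 300.045 and 292 with Smc3 shRNA2, and 206 and 210.4 with Empty Vector. The Smc3 shRNA1 arrays were the lowest and the Smc3 shRNA2 arrays the highest of the 10, on either side of Empty Vector. Bmi1 fell with shRNA1 (-0.62 ± 0.10, adjusted p = 0.00927) and rose with shRNA2 (0.51 ± 0.10, adjusted p = 0.0229), and the shRNAs differed by -1.13 ± 0.10, adjusted p = 0.00122. That difference stood without each array (adjusted p up to 0.0252), and the second probe set, with a mean under log2 6, gave -0.89, adjusted p = 0.00644. Over the 4 Smc3 arrays together Bmi1 was at -0.06 against Empty Vector. Each Smc3 shRNA lay on 1 side of the arrays, so the shRNA and the side cannot be told apart. The Empty Vector arrays, which lie on opposite sides, differed at Bmi1 by -0.03. The Wapal shRNAs, which also lie on opposite sides, differed at Bmi1 by 0.44 ± 0.12, adjusted p = 0.139 (shRNA1 minus shRNA2). There, as with Smc3 depletion, the shRNA on the side of Empty Vector replicate 1 had the higher level.

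The other 5 members that differed between the Smc3 shRNAs did so by less than Bmi1. Bap1 was higher with shRNA1 (0.71 ± 0.10, adjusted p = 0.00567), with a second probe set at 0.45, adjusted p = 0.0301, and fell against Empty Vector with shRNA2 alone (-0.67 ± 0.10, adjusted p = 0.00834). Its call was lost without Smc3 shRNA1 replicate 1, Smc3 shRNA2 replicate 1 or Smc3 shRNA2 replicate 2 (adjusted p up to 0.0565). Kdm2b was lower with shRNA1, at 1790.3 and 2062 with Wapal shRNA1, 2292 and 2079 with Wapal shRNA2, 1466 and 1546 with Smc3 shRNA1, 2425 and 1959.8 with Smc3 shRNA2, and 2363 and 2366 with Empty Vector (-0.53 ± 0.13, adjusted p = 0.0325). Ezh1 was higher with shRNA1, at 151 and 121 with Wapal shRNA1, 188 and 196 with Wapal shRNA2, 207 and 185 with Smc3 shRNA1, 139 and 133 with Smc3 shRNA2, and 142 and 163 with Empty Vector (0.53 ± 0.12, adjusted p = 0.0270). For Ezh1, and for Phc3 below, the arrays followed the sides, with Wapal shRNA2 and Smc3 shRNA1 high and Wapal shRNA1 and Smc3 shRNA2 low. The depleted arrays of Phc1 did so as well, but its Empty Vector replicate 2 (2842) lay below Smc3 shRNA2 replicate 1 (2935). Phc1, at 2507 and 2356 with Wapal shRNA1, 3417 and 3538 with Wapal shRNA2, 4030.2 and 3889.6 with Smc3 shRNA1, 2935 and 2706 with Smc3 shRNA2, and 2476 and 2842 with Empty Vector, and Phc3, at 111 and 98.2 with Wapal shRNA1, 131 and 130.1 with Wapal shRNA2, 170.0 and 147 with Smc3 shRNA1, 119 and 112 with Smc3 shRNA2, and 118 and 129.97 with Empty Vector, were higher with shRNA1 as well (0.49 ± 0.11, adjusted p = 0.0317, and 0.45 ± 0.12, adjusted p = 0.0470). The calls of Kdm2b, Ezh1, Phc1 and Phc3 were each lost without any 1 of the 4 Smc3 arrays, with adjusted p up to 0.194, 0.187, 0.181 and 0.282. Over their probe sets together, Ezh1 gave 0.28 and Phc3 0.13, neither of which passed. Between the 2 Wapal shRNAs 0 members passed in limma, where 1.46% of all genes did, although shRNA1 lowered Wapl by less (-1.41) than shRNA2 (-3.51). At an unadjusted p under 0.05 the methods' t-test gave 9 members there, where it gave 13.5% of all probe sets.

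**Figure D4:**
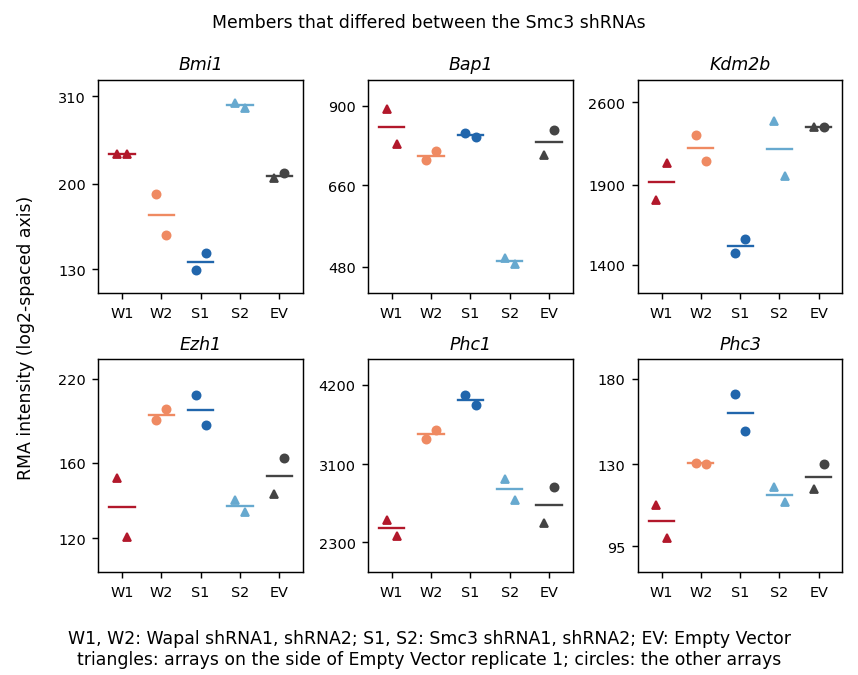
RMA intensity (y axis, log2-spaced, each gene on its own range) of the 6 members that differed between Smc3 shRNA1 and Smc3 shRNA2, on each array by group (x axis), with triangles for the arrays on the side of Empty Vector replicate 1 and circles for the other side. For Bmi1 the Smc3 shRNA1 arrays are the lowest and the Smc3 shRNA2 arrays the highest of the 10.

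Set against Empty Vector one shRNA at a time, 6 members (15.8% of them) were called with Wapal shRNA1, where 6.03% of all genes were. With Wapal shRNA2 1 member (2.63%) was called, where 4.81% of all genes were. With Smc3 shRNA1 12 members (31.6%) were called, where 11.6% of all genes were, and with Smc3 shRNA2 9 (23.7%), where 9.52% were. Without 1 array at a time these counts were 1 to 3, 0 to 2, 3 to 13 and 2 to 8, in the same order. These 4 comparisons share the 2 Empty Vector arrays. Epop fell with all 4 shRNAs. Cbx6 fell with Wapal shRNA1 and both Smc3 shRNAs, and with Wapal shRNA2 it gave -0.53 ± 0.13, adjusted p = 0.0614. Jarid2, Scml2, Yaf2 and Bcor rose with both Smc3 shRNAs, and Yaf2 also with Wapal shRNA1 (0.57 ± 0.10, adjusted p = 0.0239).

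Most members had more than 1 probe set, and these did not always move together. In Wapal-depleted cells the called members had 4 other probe sets above log2 6, all 4 of the same sign, and 1 of them passed. With Smc3 depletion they had 7, of which 7 had the same sign and 3 passed, and between the depletions 15, of which 14 had the same sign and 11 passed. Probe sets of members whose brightest did not pass were called too, 4, 3 and 5 of them. A dimmer probe set of Ezh1 rose with both depletions (0.52, adjusted p = 0.0276, and 0.48, adjusted p = 0.0341), whereas the brightest gave 0.08 and 0.10. The probe sets of Suz12, Jarid2, Bcor and Bap1 gave the same direction between the depletions throughout.

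**Figure D5:**
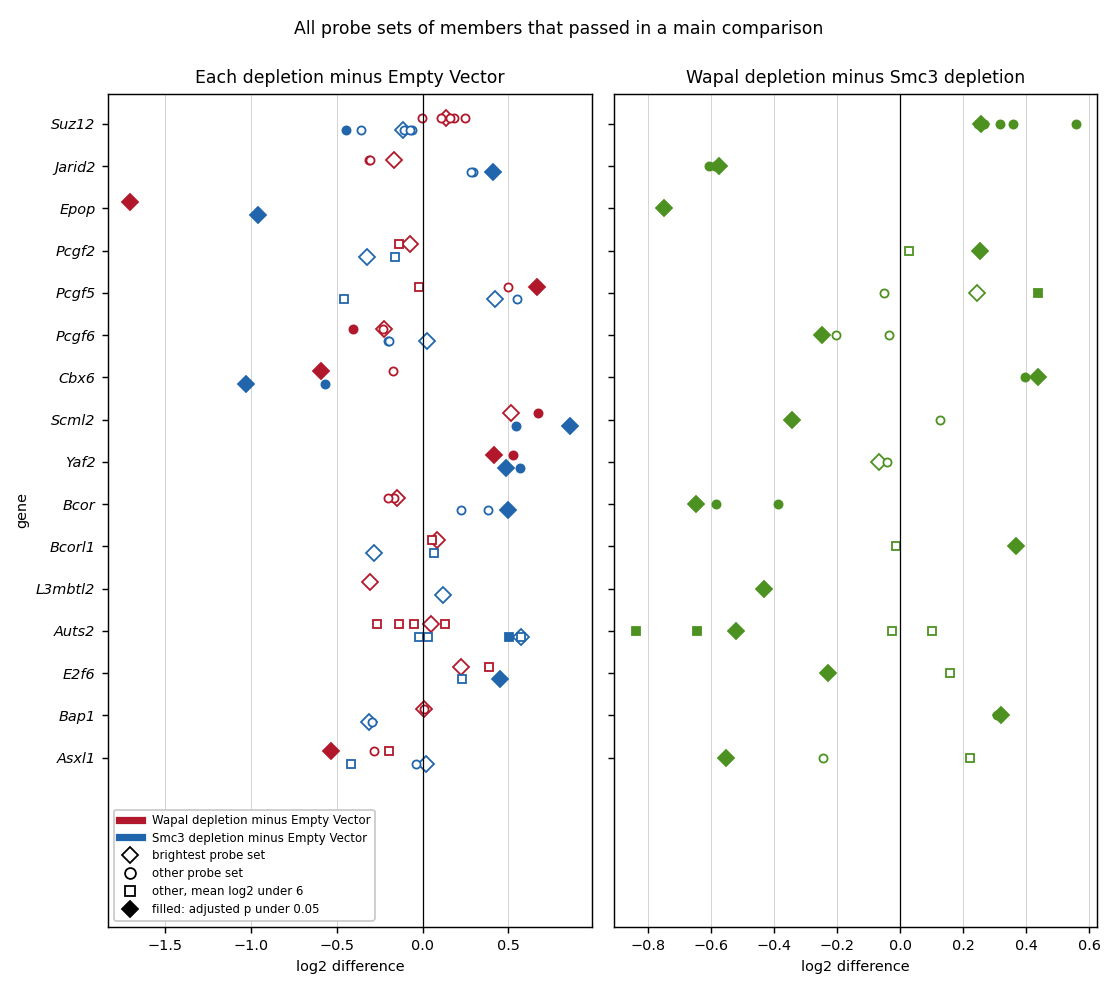
Log2 differences (x axis) of every probe set of the members (y axis) that passed in a main comparison, against Empty Vector (left) and between the depletions (right), with diamonds for the brightest probe set and filled symbols for an adjusted p under 0.05. All 6 Suz12 probe sets lie to the right of 0 and all 3 probe sets of Jarid2 and of Bcor to the left in the comparison of the depletions, while those of Auts2 and Asxl1 spread to both sides.

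Genes that work with or against the Polycomb complexes were followed beside them. Of 32 measured partners outside the members, 1 rose and 3 fell with Wapal depletion, 12.5% in all, and 2 rose and 1 fell with Smc3 depletion, 9.38%, where 7.56% and 10% of all genes were called. These shares are near the background. Lcorl, a PRC2-associated corepressor gene, rose with Wapal depletion (0.71 ± 0.11, adjusted p = 0.0120), and Hcfc1 (-0.56 ± 0.11, adjusted p = 0.0258), a cofactor bound by Bap1, and Fbrsl1 (-0.56 ± 0.10, adjusted p = 0.0230), a relative of Auts2, fell. Sfmbt2 (0.61 ± 0.11, adjusted p = 0.0157), an MBT domain protein, and Usp11 (0.56 ± 0.13, adjusted p = 0.0402), a deubiquitinase, rose with Smc3 depletion. Between the depletions 0 partners were higher and 9 lower with Wapal depletion in limma, 28.1% of the 32, where 22.5% of all genes were called.

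Trithorax proteins and the demethylases of lysine 27 of histone H3, which PRC2 methylates, oppose Polycomb silencing. Of 25 measured, 0 rose and 6 fell in Wapal-depleted cells, or 24%, with a median of -0.26, where that of all genes was 0.01. In Smc3-depleted cells 0 rose and 2 fell, or 8%, with a median of -0.06. The histone methyltransferases Setd1b (-1.32 ± 0.21) and Kmt2d (-0.56 ± 0.13), the chromatin remodeller subunit Arid1a (-0.67 ± 0.12) and the acetyltransferase Crebbp (-0.60 ± 0.10) fell with Wapal depletion, with adjusted p from 0.0149 to 0.0420. With Smc3 shRNA1 each of these genes also lay below both Empty Vector arrays. Arid1a gave 656 and 608 there, 1267 and 904 with Smc3 shRNA2, 555 to 692 with Wapal depletion and 1012 and 978 with Empty Vector. Setd1b, at 221 and 131 with Empty Vector, gave -0.89 ± 0.24, adjusted p = 0.0607 with Smc3 depletion. Between the depletions Setd1b did not pass (-0.43, adjusted p = 0.149), whereas Kmt2d, Arid1a and Crebbp were lower with Wapal depletion. Paxip1, a subunit of a Kmt2 complex, fell with Smc3 depletion (-0.67 ± 0.10, adjusted p = 0.00676). That fall lay mostly with Smc3 shRNA2, at 179 and 179, against 376 and 321 with Smc3 shRNA1 and 381 and 413 with Empty Vector. Between the depletions 1 was higher and 8 were lower with Wapal depletion, 36% of the 25, where 22.5% of all genes were called. All of these genes were above log2 6, where 11%, 14.2% and 32.3% of genes were called in the 3 comparisons. These 2 lists were not run without single arrays.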

How the data were processed

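RNA of CJ9 embryonic stem cells was measured on 1-colour Affymetrix expression arrays of the mouse genome, 2 for each of 5 groups. The deposited values are linear intensities per probe set, which the authors made with robust multi-array averaging (RMA). Its version is not given in the sources used here. Groups were taken from the sample labels. A supplementary table of the study orders 2 arrays the other way, namely replicate 2 of Wapal shRNA1 and replicate 1 of Wapal shRNA2. Such an exchange leaves the pooled Wapal log2 differences unaffected but bears on every value of a single Wapal shRNA. With 1 mean fitted per group, it also bears on the SE, adjusted p and calls of the pooled Wapal comparisons, against Empty Vector and against Smc3 depletion. The fits were not repeated with the 2 arrays exchanged. By the labels, the Wapl intensities of the shRNA1 pair are 929 and 1005, those of the shRNA2 pair 235 and 217, and the exchange would place 1 array of each pair in the other group. The study describes the 2 arrays of each group as biological replicates, without saying whether they came from separate infections. The p-values therefore speak only to the spread among these arrays. In the main fits that spread is the one within each group, so the SE and p-values of the pooled comparisons leave out differences between the 2 shRNAs to a target.

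Of 45101 probe sets, 64 controls were left out. The log2 intensities of the other 45037 were fitted in limma 3.58.1 (R 4.3.3) with 1 mean per group, on the 6 arrays of a target and Empty Vector, or on all 10 arrays between the depletions, with Benjamini-Hochberg adjustment at 0.05 over all of these probe sets. Gene symbols came from the array platform's annotation, in which 34945 probe sets carried 1 symbol, 932 several and 9160 none. The members named with full statistics are those past the threshold in a main comparison or between the Smc3 shRNAs, with the catalytic and core subunits in any case. Of the partner and trithorax lists, only the genes with the largest changes among those past it against Empty Vector are named. The members and lists were chosen with earlier results of these data known. The 2 sides of the arrays were also taken from an earlier analysis of these data, and the labels give no batch. The level of log2 6 that marks dim probe sets was set by hand.

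The fits were run on simulated data with known changes at bright probe sets, independent noise and no sides. That run checks the working of the fit and does not bear on how reliable the calls here are. Same-numbered replicates did not deviate together (correlations of their deviations from -0.16 to 0.057), so replicate numbers were not taken to pair samples. The alternatives were quantile normalization, log2(value + 16), leaving out dim probe sets, the mean of a gene's probe sets, all 10 arrays in 1 model, replicate number as a block, the side as a covariate, the methods' t-test and leaving out each array. The number of arrays limits the precision. Promoter sequences and positions are those of RefSeq for GRCm38.p6, matched by gene symbol, and were not compared with the array's own build, which is not given in the sources used here.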

Additional observations from a re-analysis of the deposited data

Results flagged for a closer look

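With 2 arrays per group, no group was large enough to test for an outlying sample. The members below stood out because the same contrast with Empty Vector differed between 2 targets or 2 shRNAs by a limma test of the difference itself (adjusted p under 0.05).

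Between the targets, the log2 difference of Wapal minus Smc3 depletion was positive for Suz12 (0.25), Pcgf2 (0.25), Cbx6 (0.44), Bcorl1 (0.37) and Bap1 (0.32). It was negative for Jarid2 (-0.57), Epop (-0.75), Pcgf6 (-0.25), Scml2 (-0.34), Bcor (-0.65), L3mbtl2 (-0.43), Auts2 (-0.52), E2f6 (-0.23) and Asxl1 (-0.55). Of all genes, 22.5% differed in this comparison.

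Between the Smc3 shRNAs, the log2 difference of Smc3 shRNA1 minus Smc3 shRNA2 was positive for Ezh1 (0.53), Phc1 (0.49), Phc3 (0.45) and Bap1 (0.71), and negative for Bmi1 (-1.13) and Kdm2b (-0.53). Of all genes, 12.5% differed here. The shRNA and the side of the arrays cannot be told apart.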

How the results depend on the processing

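Of 754 values for single members under an alternative, 575 kept their direction and side of the threshold, 163 lost the call, 13 gained one and 3 reversed. The reversals were all of Ezh2 with Smc3 depletion, whose value without single arrays ran from -0.081 to 0.093, through -0.029 and -0.0013. Calls that stood without every array, and under each other alternative except the adjusted methods' t-test (which keeps Jarid2 and Bcor between the depletions), were Epop with both depletions, Cbx6 and Scml2 with Smc3 depletion, Jarid2, Epop, Cbx6, Bcor and L3mbtl2 between the depletions and Bmi1 between the Smc3 shRNAs.

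Against the 2 members that rose with Wapal depletion, 4 rose with the mean of a gene's probe sets, 1 with replicate number as a block and 0 to 1 without single arrays. Against the 3 that fell, 5 fell with dim probe sets left out, 5 with all 10 arrays in 1 model and 1 to 2 without single arrays. With Smc3 depletion 5 rose, against 8 with log2(value + 16), 8 with all 10 arrays and 1 to 5 without single arrays, and 2 fell, against 6 with log2(value + 16), 6 without dim probe sets, 5 with the mean of probe sets, 4 with all 10 arrays and 2 to 3 without single arrays. Between the depletions 5 were higher, against 3 with quantile normalization, 2 with the side as a covariate and 2 to 5 without single arrays, and 9 were lower, against 5 to 9 without single arrays.

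With Wapal shRNA1 6 were called, against 3 with quantile normalization and 1 to 3 without single arrays. With Wapal shRNA2 1 was called, against 2 with quantile normalization, 3 with log2(value + 16), 6 without dim probe sets, 3 with the mean of probe sets, 6 with all 10 arrays and 0 to 2 without single arrays. With Smc3 shRNA1 the 12 calls became 3 to 13, and with Smc3 shRNA2 the 9 became 2 to 8, without single arrays. Between the Wapal shRNAs 0 were called in limma, and 1 each with log2(value + 16), without dim probe sets, with the mean of probe sets and with all 10 arrays (0 to 1 without single arrays). Between the Smc3 shRNAs 6 were called, and 1 to 6 without single arrays.

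The methods' t-test at an unadjusted p under 0.05 gave the following counts of the 38 members, with its share of all probe sets in brackets. It gave 5 risen and 8 fallen with Wapal depletion (15.7%) and 11, of which 5 fell, with Smc3 depletion (12.2%). Between the depletions it gave 14 (19.6%). With single shRNAs it gave 9 with Wapal shRNA1 (12.8%), 13 with Wapal shRNA2 (13.4%), 17 with Smc3 shRNA1 (14.1%) and 14 with Smc3 shRNA2 (13.7%). Between the shRNAs to 1 target it gave 9 for Wapal (13.5%) and 10 for Smc3 (18.4%). After Benjamini-Hochberg adjustment it gave 0 in every comparison except the one between the depletions, where 0 were higher and 3 lower. The replicate numbers do not pair the samples, and with the block the calls of Yaf2 with Wapal depletion (adjusted p = 0.0555), of Pcgf6 (0.0501), Bcorl1 (0.0605) and E2f6 (0.0528) between the depletions and of Phc3 between the Smc3 shRNAs (0.0667) were lost. The cause of each of these shifts was not tested.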
